A study of Mus musculus with 12 samples.

Results

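Umod, Slc12a1, Slc12a3, Kcnj1, Bsnd, Wnk4, Stk39 and Egf are 8 genes of salt transport in the loop of Henle and the distal tubule, and they were followed among 34650 gene names measured on Agilent arrays in developing mouse kidney and in kidney organoids. They were found by the gene name that the array files give to each probe, and each of the 8 genes had exactly 1 probe. Total RNA came from whole ICR wild-type kidneys without the ureter at birth (P0) and at the embryonic stages E17.5, E15.5, E13.5 and E11.5, and from E11.5 kidney of the same strain kept for 7 days in culture, with 1 array for each. Kidney organoids were reconstructed from nephron progenitors and ureteric bud, both derived from mouse embryonic stem cells of B6 and 129SV background, together with stromal progenitors of ICR wild-type E11.5 kidney. Organoid RNA was taken right after reconstruction, called day 0, and once they had grown for 7 days, called day 7, with 3 arrays at either time. Cultured kidneys and organoids were grown on transwells in Matrigel and a basal medium with fetal bovine serum, and the stroma of the organoids was thus embryonic tissue rather than a stem cell product. The labels do not say whether organoid replicates were separate cultures or whether kidneys of several embryos were pooled, so p-values measure only the spread between these arrays.

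The thick ascending limb of the loop of Henle reabsorbs salt without water. Its apical cotransporter NKCC2 (Slc12a1) takes up sodium, potassium and chloride, the channel ROMK (Kcnj1) returns potassium to the lumen, and chloride leaves on the blood side through channels that need the subunit barttin (Bsnd). Uromodulin (Umod), the most abundant protein of normal urine, is made by the same segment. The distal convoluted tubule, which follows, takes up salt through the thiazide-sensitive cotransporter NCC (Slc12a3). The kinases WNK4 (Wnk4) and SPAK (Stk39) act in sequence upstream of both cotransporters, SPAK being the kinase that phosphorylates them. Epidermal growth factor (Egf) is made as a membrane precursor in the loop and the distal convoluted tubule and favours magnesium uptake there.

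Each level below is the log2 signal of a gene's probe minus the 75th percentile of all probes on the same array, so that 0 stands for a probe at that percentile, and differences are differences of these log2 levels. Levels of different genes cannot be set against each other, because each probe has its own brightness. In whole tissue, fewer cells of a segment and less RNA per cell cannot be told apart. The probes are 60 bases long, and 3 of them are shown because they are the measured stretches of the cotransporter, the kinase and the growth factor that behaved differently in organoids. The probe of Slc12a3 lies at chr8:96875636-96875695 (mm9, plus strand). The probe of Wnk4 lies at chr11:101138198-101138364 (mm9, plus strand), where its 60 bases span 167 bases of genome and are thus interrupted by 107 bases that it does not contain. The probe of Egf lies at chr3:129380826-129380885 (mm9, minus strand), and its 10 spots on each array were averaged.
Slc12a3 probe: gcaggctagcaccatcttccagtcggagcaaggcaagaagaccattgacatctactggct
Wnk4 probe: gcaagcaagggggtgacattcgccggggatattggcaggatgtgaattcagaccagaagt
Egf probe: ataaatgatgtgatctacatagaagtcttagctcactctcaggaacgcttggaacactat
The other probes lie on mm9 at chr7:126606529-126606588 (minus, Umod), chr2:125055143-125055202 (plus, Slc12a1), chr9:32206612-32206671 (plus, Kcnj1), chr4:106156065-106156124 (minus, Bsnd) and chr2:68048524-68048583 (minus, Stk39).

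The 250 bases upstream of the RefSeq start are shown for 2 genes that rose with stage and in culture, Umod and Slc12a1, and for Stk39, whose level was nearly flat (RefSeq, GRCm38.p6). RefSeq gave a promoter entry for 7 of the 8 genes. The windows lie at chr7:119479263-119479512 (minus strand, Umod), chr2:125152350-125152599 (plus strand, Slc12a1) and chr2:68471982-68472231 (minus strand, Stk39). No letters are set in capitals, since none of the motifs searched was found in these 3 windows.
Umod upstream window: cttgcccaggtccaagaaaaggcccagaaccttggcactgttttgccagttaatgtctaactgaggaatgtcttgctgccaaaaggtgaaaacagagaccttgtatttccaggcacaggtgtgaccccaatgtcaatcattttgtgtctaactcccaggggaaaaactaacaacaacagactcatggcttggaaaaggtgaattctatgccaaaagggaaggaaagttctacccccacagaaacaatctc
Slc12a1 upstream window: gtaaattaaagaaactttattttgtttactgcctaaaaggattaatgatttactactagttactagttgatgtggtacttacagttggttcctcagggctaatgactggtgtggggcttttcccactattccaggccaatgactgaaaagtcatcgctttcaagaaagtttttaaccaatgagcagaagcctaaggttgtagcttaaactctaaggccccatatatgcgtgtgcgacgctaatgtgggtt
Stk39 upstream window: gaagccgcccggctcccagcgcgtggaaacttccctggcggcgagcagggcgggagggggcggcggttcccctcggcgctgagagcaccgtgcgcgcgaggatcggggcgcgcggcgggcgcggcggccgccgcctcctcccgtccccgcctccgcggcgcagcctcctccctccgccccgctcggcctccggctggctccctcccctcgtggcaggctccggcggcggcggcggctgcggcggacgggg
These windows, extended by the first 50 transcribed bases, were searched on both strands. The estrogen-related receptor motif AAGGTCA, held by 4.72% of 32851 mouse promoter windows of this length, was found in none of the members' windows. The TATAAA box, held by 13.6% of windows, stood at position -32 of the Slc12a3 window and in no other member's. The members' windows also differed in base composition. Stk39 had 80.0% GC and 49 CpG dinucleotides and Wnk4 had 70.7% and 21, against a median of 52.7% and 7 over all windows. The windows of Umod (47.3% GC, 0 CpG), Kcnj1 (43.7%, 2 CpG) and Slc12a1 (42.7%, 5 CpG) lay below that median, as did both windows of Egf in GC (49.0% with 0 CpG, and 52.3% with 17 CpG). The Slc12a3 window had 60.3% GC and 4 CpG.

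The share of probes well above background was 50.6% to 54.2% at day 0, below the 56.1% to 63.2% of every other array, and the number of arrays limits the precision. The epithelial marker Cdh16, a kidney cadherin, and the kidney transcription factors Pax2 and Pax8 were well above background on all 12 arrays. The first slide carried every kidney array with replicates 1 and 2 of day 0, and the second carried day 0 replicate 3 with the 3 arrays of day 7, so that slide and group overlap in part.

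In fresh kidney the apical and basolateral transport genes of the loop had their steepest step between E13.5 and E15.5 and were highest at birth. The number of members well above background was 5 at E11.5, 6 at E13.5 and 8 from E15.5 on. Umod measured -4.20 at E11.5, -3.51 at E13.5, 0.22 at E15.5, 3.70 at E17.5 and 5.70 at P0. It was higher at each stage than at the one before, and its P0 signal was 953 times that at E11.5. Slc12a1 was not well above background at E11.5 (-7.40) and E13.5 (-7.21) and then measured -0.49, 0.92 and 1.64 at E15.5, E17.5 and P0. Kcnj1 was not well above background at E11.5 (-7.21) and measured -4.35, 2.16, 3.52 and 4.28 at the following stages. For Kcnj1 the step from E13.5 to E15.5 alone was 90.7-fold, while the step from E17.5 to P0 was 1.70-fold. Bsnd stood at -3.99 and -3.97 at E11.5 and E13.5, and at 0.59, 1.90 and 2.54 at E15.5, E17.5 and P0. Its level was thus flat before the 23.5-fold step to E15.5.

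The distal cotransporter gene had larger steps late than the other transport genes. Slc12a3 was not well above background at E11.5 (-6.95) and E13.5 (-7.25), and it measured -3.46 at E15.5, -0.61 at E17.5 and 0.70 at P0. The step of Slc12a3 from E15.5 to E17.5 was 7.24-fold, against 2.66-fold for Slc12a1, 2.56-fold for Kcnj1 and 2.49-fold for Bsnd over the same interval, and 11.2-fold for Umod. From E17.5 to P0 only Umod (4.0-fold) and Slc12a3 (2.48-fold) of the 8 genes rose at least 2-fold. These are differences between single arrays without a test.

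The regulators moved less. Wnk4 measured 0.18, -0.14, 0.26, 0.67 and 1.65 from E11.5 to P0, with its largest step (1.98-fold) just before birth. Stk39 stayed between 1.84 and 2.20 at all 5 stages. Egf measured -3.76, -4.66, -2.94, -2.54 and -1.60, so that it was lowest at E13.5 and highest at P0. A kinase gene near a constant level thus stood beside cotransporter genes that differed at least 64.5-fold (Slc12a3) and at least 123-fold (Slc12a1) between E11.5 and P0. Here "at least" sets the dim array at the lowest signal that was well above background on it. Where the dim array's own signal was higher than that, its own signal was used.

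**Figure D1:**
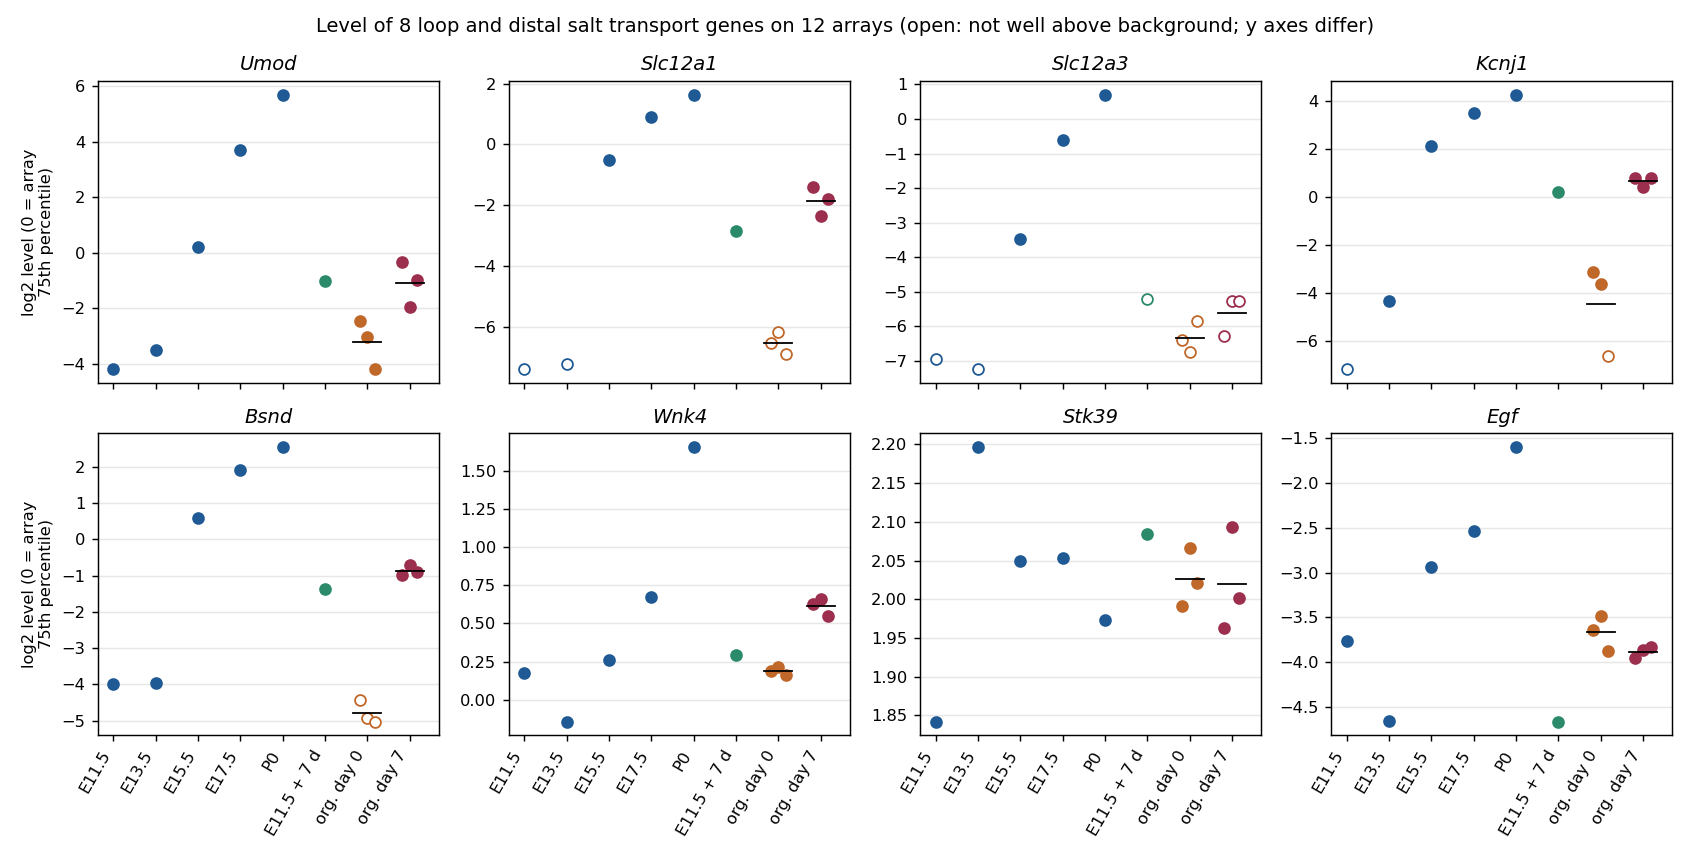
Log2 level (0 = the array's 75th percentile) of each of the 8 genes on the 12 arrays: 5 fresh kidney stages, E11.5 kidney after 7 days of culture, and organoids at day 0 and day 7 with 3 arrays each. Points are arrays, open points are not well above background, and bars are means of 3; the y axes differ between genes. Umod, Slc12a1, Kcnj1 and Bsnd of day 7 organoids lie between the E13.5 and E15.5 kidneys, whereas Slc12a3 is open in all organoid arrays.

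Between E13.5 and E15.5, 6 of the 8 genes were at least 2-fold higher, against 9.83% of 24616 genes. The corresponding counts were 1 of 8 from E11.5 to E13.5 (5.30% of genes), 5 of 8 from E15.5 to E17.5 (5.04%) and 2 of 8 from E17.5 to P0 (4.09%). At P0, 7 of the 8 members were at least 2-fold above E11.5 and 0 were lower, against 14.8% and 15.2% of 24725 genes. The median step of the members was 3.75 from E13.5 to E15.5, against -0.10 over all genes. None of the 8 was at least 2-fold lower at any of these steps, against 8.94%, 1.74%, 2.71% and 3.87% of genes from the earliest step to the latest. Markers of the proximal tubule rose over these stages as well, their summed signal going from 1.56 times the 75th percentile at E11.5 to 468 times at P0, and their part in the levels of the loop genes was not tested.

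**Figure D2:**
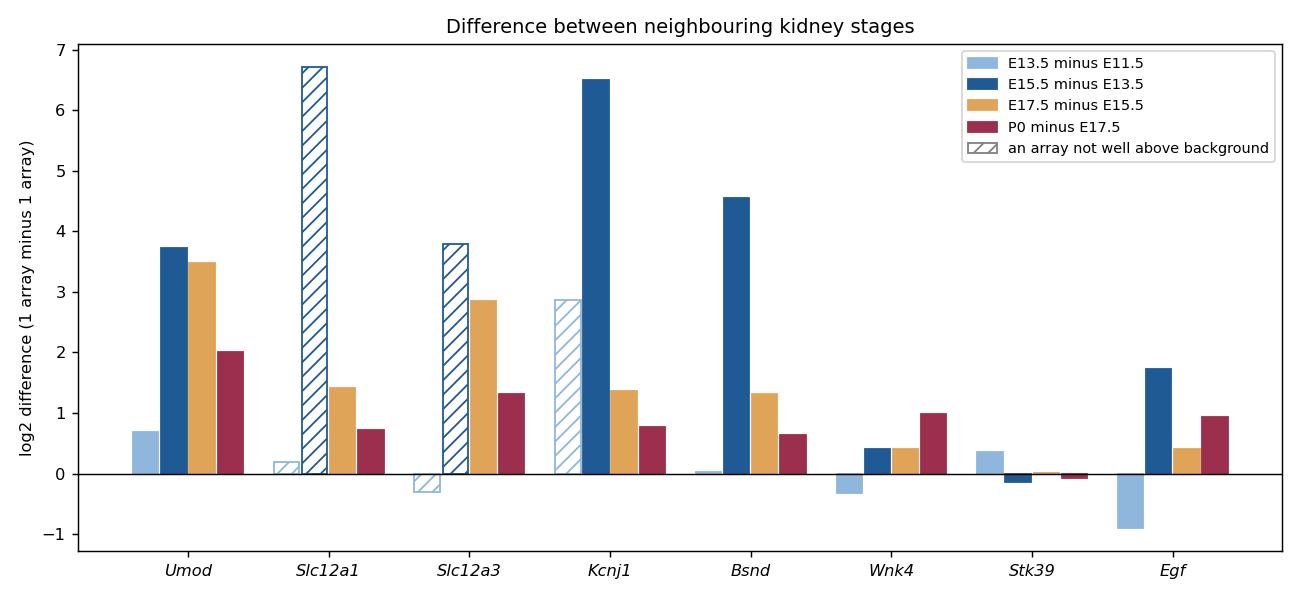
Log2 difference between neighbouring kidney stages (1 array minus 1 array) for each of the 8 genes; hatched bars have an array that was not well above background. The E13.5 to E15.5 bars reach 6.50 for Kcnj1 and 4.56 for Bsnd, and the 4 bars of Stk39 lie between -0.15 and 0.35.

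A slope per stage step was fitted over the 5 kidney arrays with limma, and 5 of the 8 genes rose at an adjusted p under 0.05, while 8.74% of 25978 genes were called higher, 9.57% lower and 18.3% in either direction (2271 and 2485 genes, but 1712 and 863 with scaling to the array median). Kcnj1 rose by 3.08 ± 0.47 (SE) per step (adjusted p = 0.0212), Umod by 2.70 ± 0.23 (adjusted p = 0.0110) and Slc12a1 by 2.62 ± 0.46 (adjusted p = 0.0282). Slc12a3 rose by 2.19 ± 0.28 (adjusted p = 0.0164) and Bsnd by 1.89 ± 0.31 (adjusted p = 0.0241). Slc12a1 and Slc12a3 were not well above background at E11.5 and E13.5, nor Kcnj1 at E11.5, so that their slopes are not exact. Over all alternatives these were as low as 1.15 for Slc12a1, 0.78 for Slc12a3 and 1.81 for Kcnj1. Each SE measures scatter around the line, since every stage had 1 array. Slopes of 0.65 ± 0.17 for Egf (adjusted p = 0.0608), 0.38 ± 0.11 for Wnk4 (adjusted p = 0.0762) and 0.01 ± 0.06 for Stk39 (adjusted p = 0.897) did not pass. Egf and Wnk4 were both called with normexp and with trend and robust moderation, which gave 7 members. Without the E17.5 array or without the P0 array limma called none of the 8 members and 0 genes in all. At an unadjusted p under 0.05, 7 members passed with all 5 arrays, 7349 genes and 7 members without E17.5, and 5606 genes and 5 members without P0. Leaving out E17.5 thus cost the adjusted calls but did not change the count of members at an unadjusted p under 0.05.

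Other genes of loop and distal transport were taken from a list of 32. With stage, 20 rose and 0 fell (26 and 1 at an unadjusted p under 0.05), with a median slope of 0.71 against -0.06 over all genes. Limma called 8.74% of all genes higher and 9.57% lower. All 7 genes of salt transport in this list rose, led by the sodium-proton exchanger Slc9a3 (2.45 ± 0.36 per step) and the sodium pump subunit Fxyd2 (2.28 ± 0.29). Of the tight junction genes 3 of 4 rose, among them Cldn10 (2.03 ± 0.20), which forms the paracellular sodium path of the limb, and Cldn16 (2.01 ± 0.28), which takes part in paracellular magnesium uptake and was not called without the E11.5 array (1.81, adjusted p = 0.0647). Of the 6 transcription factors of these segments, Esrrg alone passed, at 1.13 ± 0.20 per step. Slc9a3 and Cldn16 were not well above background at E11.5 and E13.5, and over all alternatives their slopes were as low as 1.24 and 0.73.

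Few of the loop transport genes were detected in day 0 organoids. Of the 8 genes, 5, 5 and 4 were well above background on the 3 arrays. Slc12a1 (-6.52, -6.16 and -6.90 in replicates 1 to 3), Slc12a3 (-6.39, -6.74 and -5.85) and Bsnd (-4.42, -4.94 and -5.03) were not well above background on any of them. Umod measured -2.47, -3.02 and -4.19, and replicate 3 lay at the E11.5 kidney level while the others lay above that of E13.5. Kcnj1 measured -3.12, -3.63 and -6.66, of which the last was not well above background. Wnk4 (0.19, 0.22 and 0.16), Stk39 (1.99, 2.07 and 2.02) and Egf (-3.64, -3.48 and -3.88) had replicates close together, at or near their E11.5 values. Against the E11.5 kidney, limma called 0 of the 5 members that could be tested (0 higher and 1 lower at an unadjusted p under 0.05), where 13.6% of 23322 genes were called higher, 12.8% lower and 26.5% in either direction. Umod differed by 0.97 ± 0.79 (adjusted p = 0.400) and Bsnd by -0.81 ± 0.25 (adjusted p = 0.0623). Bsnd was called lower without day 0 replicate 1 (-1.0, adjusted p = 0.0165). Kcnj1, which could be tested without replicate 3, was then called higher (3.83 ± 0.28, adjusted p = 0.00409), but its E11.5 value was not well above background, so that this size is not a bound.

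The replicates of day 0 spread in the same order for the proximal tubule genes Kap, Slc34a1 and Lrp2 (0.45, 0.36 and -0.67). Slc22a6, another proximal tubule gene, did not follow that order (-1.33, -1.49 and -1.44). Kap, an androgen-regulated proximal tubule gene, measured 0.11, -0.48 and -2.07 in day 0 replicates 1 to 3, when it was not well above background in E11.5 and E13.5 kidney and stood at 7.17 at P0. The phosphate transporter Slc34a1 measured -1.86, -2.25 and -3.88 there, against -3.83 in E13.5 kidney and a level not well above background at E11.5. The summed signal of 8 proximal tubule markers, in units of the array's 75th percentile, was 1.55 to 3.99 at day 0, with 7 of the 8 well above background on every array, against 1.56 at E11.5 with 4 of 8. Limma called 4 of 7 tested proximal markers higher at day 0 than at E11.5. Whether the same source contributes to the Umod and Kcnj1 signal of day 0 was not tested.

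From the list of 32 genes, 5 were higher and 3 lower at day 0 than at E11.5, of 27 tested. That is 29.6% of those tested, near the 26.5% of all genes. The prostaglandin receptor Ptger3 was higher by 3.06 ± 0.26 (8.33-fold, adjusted p = 0.00154), Fxyd2 by 2.03 ± 0.23 (adjusted p = 0.00311) and Cnnm2, a magnesium transport protein, by 1.5 ± 0.18 (adjusted p = 0.00331). The E11.5 value of Ptger3 was not well above background, so that its size is neither exact nor a bound. Ptger3 entered the test through day 0 alone. The phosphatase inhibitor Ppp1r1a was lower by 1.17 (-1.17 ± 0.31, adjusted p = 0.0378), and with normexp background correction it was not called (-0.13, adjusted p = 0.275).

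Over 7 days in culture the organoids gained signal of the thick ascending limb genes, while the distal cotransporter gene stayed near background. All 8 genes but Slc12a3 were well above background on each day 7 array. Slc12a1 measured -1.41, -2.34 and -1.78 in day 7 replicates 1 to 3, all well above background where no day 0 array was. It was at least 6.08-fold higher than at day 0 (difference 4.68 ± 0.28, limma adjusted p = 2.76e-05). Kcnj1 measured 0.78, 0.40 and 0.80 at day 7, and its mean rose 35.0-fold (5.13 ± 0.88, adjusted p = 0.00227). Bsnd measured -0.98, -0.71 and -0.90 and was at least 12-fold higher (3.93 ± 0.18, adjusted p = 1.03e-05). Umod measured -0.34, -1.93 and -0.99, all above the highest day 0 value, and rose 4.40-fold (2.14 ± 0.54, adjusted p = 0.0123). Slc12a3 measured -6.28, -5.26 and -5.27, none well above background, so that it was not tested and no level can be given for it in organoids.

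Among the regulators Wnk4 rose by 0.42 ± 0.08 (1.34-fold, adjusted p = 0.00291), with 0.63, 0.66 and 0.55 at day 7 and no overlap with day 0. Stk39 (1.96, 2.09 and 2.0 at day 7) differed by -0.01 ± 0.08 (adjusted p = 0.944), with a 95% interval from -0.20 to 0.18 and overlapping groups. The sign of that difference turned under quantile normalization (0.076) and under scaling to the array median (0.016). Egf (-3.95, -3.86 and -3.83) differed by -0.21 ± 0.12 (adjusted p = 0.15), with an interval from -0.50 to 0.07, and it was called lower without day 0 replicate 3 (-0.32, adjusted p = 0.0300). In total 5 of 7 tested members rose and 0 fell (5 and 0 also at an unadjusted p under 0.05), where 24.6% of 21961 genes were called higher, 42% lower and 66.6% in either direction. The median difference of these 7 was 2.14, against -0.20 over all genes. Of the 5 that rose, Slc12a1, Kcnj1 and Bsnd entered the test only through day 7, where they were high. Their direction was thus largely set by the filter, and their calls add little to the count. Umod and Wnk4 were well above background on every organoid array.

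The size of 2 of the rises depended on day 0 replicate 3. With slide as a block, which sets the day 7 arrays against that replicate on their own slide, Kcnj1 rose by 7.32 and Umod by 3.1, and without it they rose by 4.03 and 1.66, called each time. With normexp background correction, which adds an offset of 50 to every signal, the rises of the dim genes were smaller but still called, at 0.67 for Slc12a1, 1.08 for Bsnd, 0.60 for Umod and 2.11 for Kcnj1.

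Of the 32 listed genes 30 were tested, and 19 rose and 6 fell, with a median of 1.16 against -0.20 over all genes. That is 83.3% called, against 66.6% of all genes (24.6% higher and 42% lower). All 7 transport genes rose, including Fxyd2 (4.09 ± 0.16, 17.0-fold) and Slc9a3 (3.90 ± 0.18), which was at least 4.2-fold higher. All 6 segment transcription factors rose, led by the Iroquois factors Irx1 (5.69 ± 0.27, 51.6-fold) and Irx2 (5.04 ± 0.56, at least 18.6-fold). The tight junction genes Cldn10 and Cldn19 rose, Cldn14 was not called and Cldn16 was not tested. Genes of divalent ions and hormone receptors split (85.7% of 7 called), with Casr, the calcium-sensing receptor, and Pth1r higher, and Calb1, Cnnm2, Ptger3 and Pvalb lower. Calb1 and Pvalb are calcium-binding proteins known from the distal convoluted tubule. Both were already well above background in E11.5 kidney (1.23 and -1.58). Which cells carried their signal in organoids was not tested. In the kinase pathway Sgk1 and Nedd4l rose and Wnk1 and Cul3 fell, of 7 tested.

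**Figure D3:**
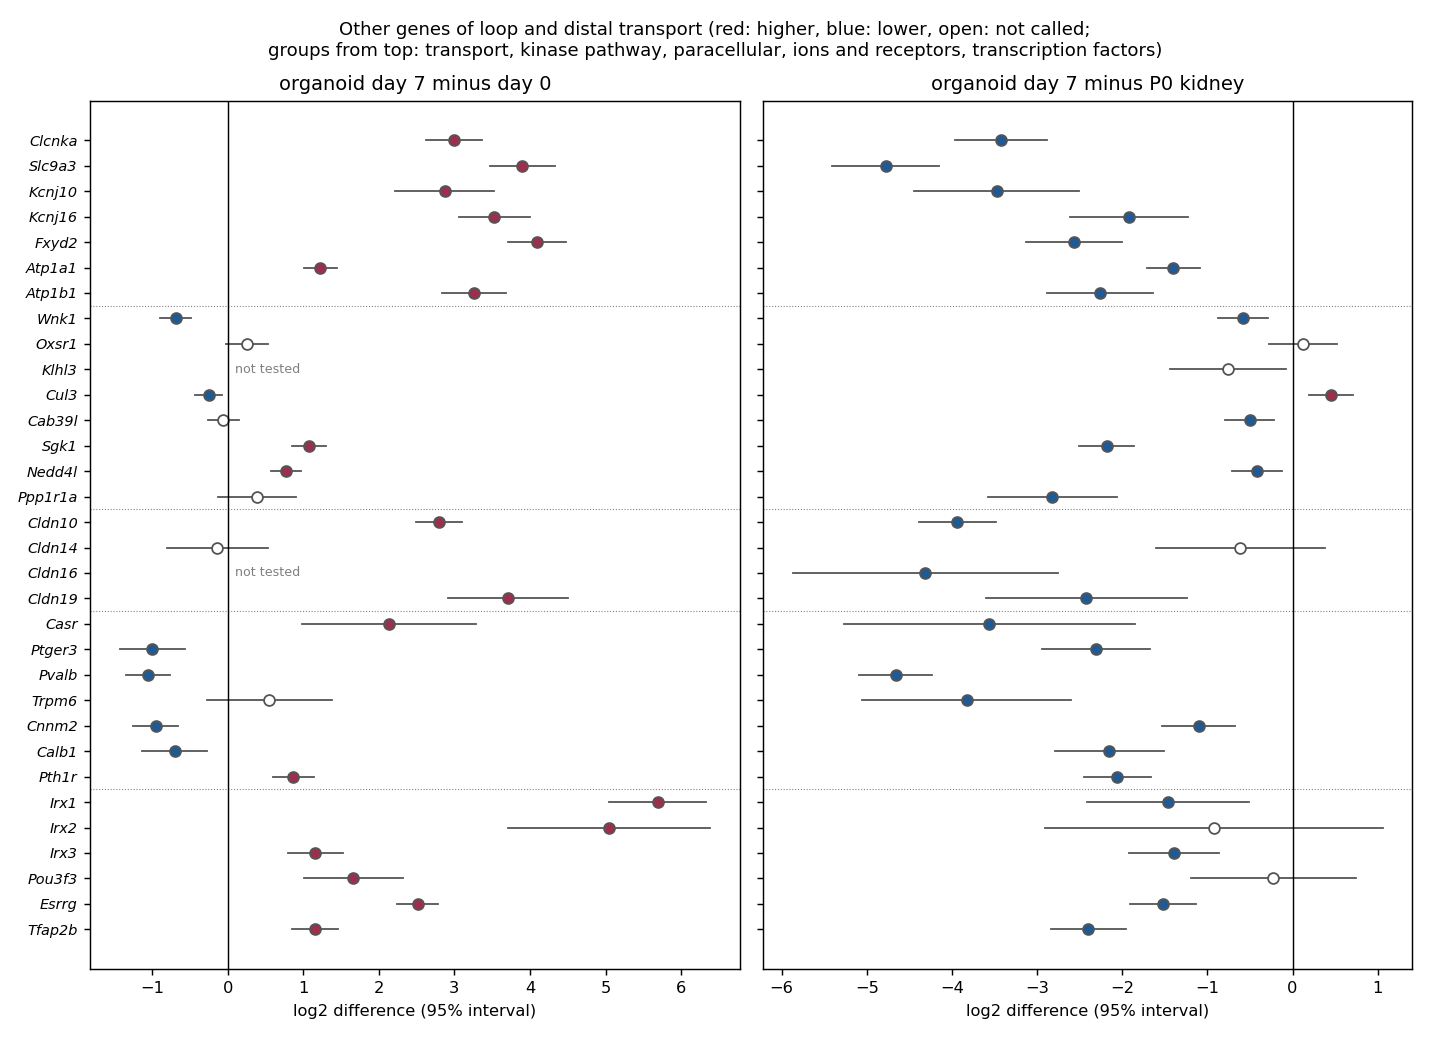
Log2 difference with its 95% interval for 32 other genes of loop and distal transport, between day 7 and day 0 organoids (left) and between day 7 organoids and P0 kidney (right); red points are higher, blue points lower and open points not called by limma. All 7 transport genes are red on the left and blue on the right.

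Markers of other nephron cells rose over the same 7 days. Limma called all 7 markers of tubular epithelium in general higher, with a summed signal of 34.6 to 48.8 at day 0 and 208 to 308 at day 7. It called 6 of 7 tested proximal tubule markers, 6 of 6 early nephron markers and 5 of 6 collecting duct markers higher as well, whereas all 4 neuron markers were lower. Of the 4 stromal markers 3 were lower and Col1a1 higher, with a summed signal of 108 to 109 at day 0 and 130 to 146 at day 7. Col1a1, at a mean of 6.02 at day 0 and 6.95 at day 7, alone carried that higher sum. Over all genes tested, 24.6% were called higher and 42% lower. The part of these markers in the rise of the loop genes was not tested.

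The cultured E11.5 kidney, the tissue that was cultured without reconstruction, also had signal of these thick ascending limb genes. It measured -1.0 for Umod, -2.84 for Slc12a1, 0.22 for Kcnj1 and -1.37 for Bsnd, all well above background. Against the fresh E11.5 array these were 9.20-fold, at least 5.55-fold, at least 46.2-fold and 6.14-fold higher, and 4 of 8 members were thus higher by at least 2-fold, against 11.3% of 24148 genes. Slc12a3 (-5.20) was not well above background there either. Wnk4 stood at 0.29 and Stk39 at 2.08. None of the 8 was at least 2-fold lower, against 8.41% of genes. Egf, at -4.67, was 1.87-fold lower than in the fresh E11.5 kidney and at the E13.5 level.

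In the fit of all 12 arrays, in which the lone kidney array was assumed to vary like organoid replicates, 1 of 7 tested members differed between day 7 organoids and cultured kidney, while 3.25% of 22899 genes were called higher, 3.1% lower and 6.35% in either direction. Scaling to the array median changed this split from 744 higher and 709 lower to 1162 and 435 and moved the median over all genes from -0.03 to 0.16, which shifts every difference from the cultured kidney upward. Egf was 1.72-fold higher in organoids (0.78 ± 0.17, adjusted p = 0.0498). That call was lost when any of the 3 day 7 replicates (adjusted p = 0.109 to 0.126) or day 0 replicate 1 (adjusted p = 0.0800) was left out and with slide as a block (1.1, adjusted p = 0.0767), and over all alternatives its adjusted p ranged from 0.0198 to 0.226. The other tested genes were not called, and 3 of the 7 were higher at an unadjusted p under 0.05. Umod differed by -0.09 (95% interval -2.0 to 1.81), Kcnj1 by 0.44 (-2.63 to 3.51), Slc12a1 by 0.99 ± 0.40 (0.02 to 1.97, adjusted p = 0.179), Bsnd by 0.51 ± 0.25 (adjusted p = 0.249) and Wnk4 by 0.32 ± 0.11 (adjusted p = 0.125). With slide as a block Kcnj1 was called higher in organoids (3.73, adjusted p = 0.0306) and Umod turned to 1.35 (adjusted p = 0.565). Only day 0 organoids lay on both slides, so this block shifts the comparison by day 0 replicate 3 against replicates 1 and 2. For Kcnj1 that replicate measured -6.66, not well above background, against -3.12 and -3.63. A slide effect and a deviating replicate cannot be told apart here. Of the 32 listed genes 30 were tested and limma called 0 (3 higher and 4 lower at an unadjusted p under 0.05).

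The change over 7 days was also compared between both tissues, as an interaction term chosen after the values had been seen. It passed for 0 of 7 members (2 higher and 0 lower at an unadjusted p under 0.05), while 6.38% of 24329 genes were called higher, 5.93% lower and 12.3% in either direction. These 1553 and 1443 genes became 3250 and 8427 with normexp, 1472 and 861 with scaling to the array median, and 736 and 583 without day 7 replicate 3. Slc12a1 changed by 4.68 in organoids and by 4.57 in E11.5 kidney, Bsnd by 3.93 and 2.62 (difference 1.32 ± 0.36, adjusted p = 0.0687), Umod by 2.14 and 3.20 (-1.06 ± 1.13, adjusted p = 0.569) and Kcnj1 by 5.13 and 7.42. The starting values of Slc12a1 and Kcnj1 in E11.5 kidney, and of Slc12a1 and Bsnd in day 0 organoids, were not well above background, so these changes are neither exact nor bounds. Under that limit, without day 0 replicate 3 the smaller change of Kcnj1 in organoids was called (-3.39, adjusted p = 0.0174), and without day 0 replicate 1 the larger change of Bsnd was called (1.5, adjusted p = 0.0271).

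Placed on the series of fresh kidneys, every day 7 array lay above E13.5 and below E15.5 for Umod, Slc12a1, Kcnj1 and Bsnd, and so did the cultured kidney. For Wnk4 both lay between E15.5 and E17.5. Against the fresh E15.5 array alone, 6 of the 8 genes were at least 2-fold lower in the cultured kidney and 0 higher, against 7.25% and 6.93% of 24748 genes. For Egf the day 7 arrays lay between E13.5 and E11.5, while the cultured kidney lay below every stage. In order of level, Slc12a1, Bsnd and Kcnj1 were ranked E13.5 kidney, cultured kidney, day 7 organoids, E15.5, E17.5 and P0, and for Umod the cultured kidney and the day 7 organoids changed places. Those 2 neighbours were not called different for these 4 genes in the fit without blocks, while Kcnj1 was with slide as a block, as given above. The single kidney arrays give no spread of their own. The day 7 arrays were all on the second slide and the kidney arrays all on the first, so organoids were placed across slides. With slide as a block the difference between day 7 organoids and P0 was -0.34 for Kcnj1 and -5.34 for Umod. Without it these were -3.62 and -6.79. The places of Kcnj1 and Umod below E15.5 thus hold only for the levels without that block.

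Compared with P0 kidney, day 7 organoids had lower levels of 6 of the 8 genes, where 15.6% of 23870 genes were called lower, 21% higher and 36.6% in either direction, with a median of -3.44 against 0.06 over all genes. Umod was 110-fold lower (-6.79 ± 0.79, adjusted p = 0.00185), Slc12a3 at least 54.7-fold lower (-6.30 ± 0.50, adjusted p = 4.78e-04) and Slc12a1 11.2-fold lower (-3.48 ± 0.41, adjusted p = 0.00183). Bsnd was 10.6-fold lower (-3.40 ± 0.25, adjusted p = 4.06e-04), Egf 4.87-fold lower (-2.28 ± 0.17, adjusted p = 3.94e-04) and Wnk4 2.06-fold lower (-1.04 ± 0.11, adjusted p = 0.00121). Kcnj1 differed by -3.62 ± 1.28 and was not called (adjusted p = 0.0709), and Stk39 differed by 0.05 ± 0.11 (adjusted p = 0.769). Without day 0 replicate 3, which enters through the shared spread, Kcnj1 was called (-3.62, adjusted p = 0.00131). With slide as a block its difference was -0.34 and that of Umod -5.34, of Slc12a1 -2.92 and of Slc12a3 -7.02, with the last 3 still called. That slide term rests on day 0 replicate 3 against replicates 1 and 2 alone. Over all alternatives the difference of Slc12a3 ranged from -7.02 to -2.80 and that of Egf from -2.31 to -0.72. Both kept their call wherever tested, but the 54.7-fold bound holds only for the levels used here. Slc12a3 entered this test only through the P0 array, where it was high. Its direction was thus largely set by the filter, and its call adds little to the count of 6.

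**Figure D4:**
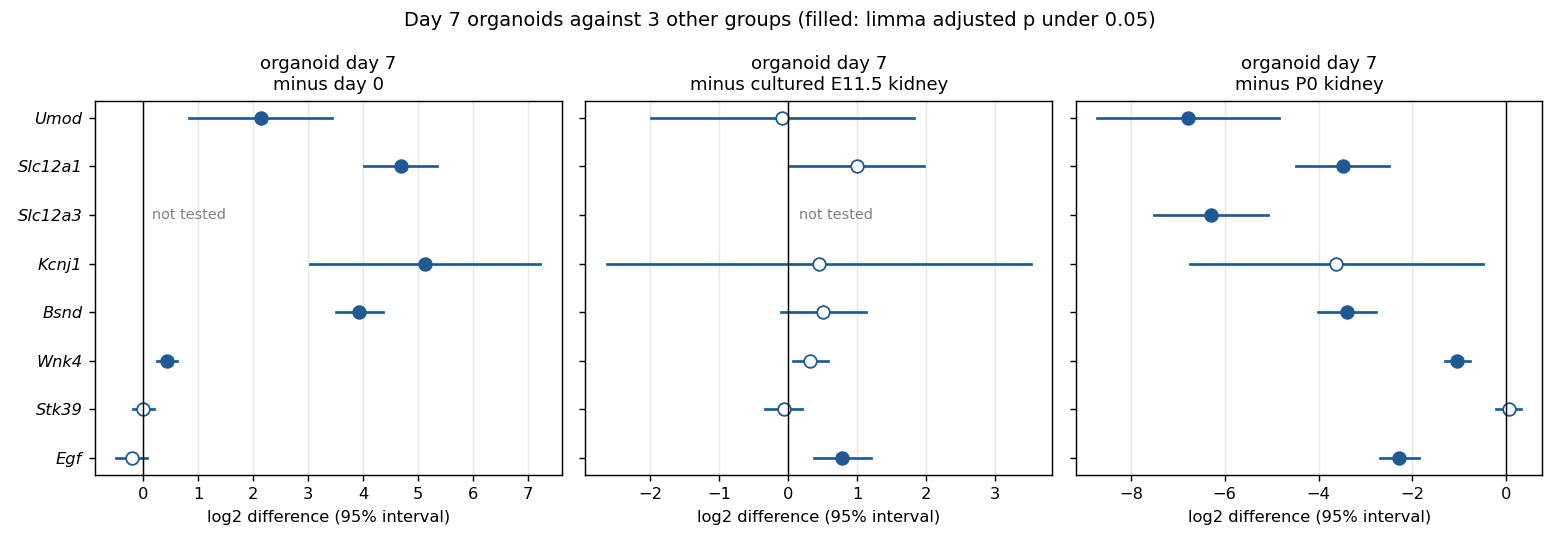
Log2 difference with its 95% interval (limma) of the 8 genes between day 7 organoids and day 0 organoids, E11.5 kidney cultured for 7 days, and P0 kidney; filled points have an adjusted p under 0.05. Slc12a1, Bsnd and Umod lie to the right of 0 against day 0, at 0.99, 0.51 and -0.09 without a call against cultured kidney, and to the left of 0 against P0.

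The listed genes showed the same direction against P0, with 26 of 32 lower and Cul3 higher, against 15.6% lower and 21% higher over all genes. All 7 transport genes were lower, with Slc9a3 at -4.78 ± 0.26 (27.5-fold), as were Pvalb (-4.66 ± 0.18, 25.3-fold), Cldn16 (-4.31 ± 0.64), and Cldn10 (-3.94 ± 0.18, 15.3-fold). Cldn16 was well above background on 2 of 3 day 7 arrays and thus entered the test through P0 alone. It was not called with slide as a block (-3.76, adjusted p = 0.0622). Of the 6 transcription factors 4 were lower, while Pou3f3 (-0.22 ± 0.40) and Irx2 (-0.92 ± 0.81) were not called. The markers of tubular epithelium in general stood closer to P0. Of these 7 markers 1 was lower (Cdh16) and 1 higher (Pax2), and their summed signal was 208 to 308 at day 7 against 257 at P0. All 8 proximal tubule markers were lower, with a summed signal of 19.5 to 28.2 at day 7 against 468 at P0. All 4 stromal markers were higher (summed signal 130 to 146 against 53.9), and so were 3 of 6 early nephron markers (45.5 to 50.2 against 30.4). The part of these markers in the lower loop genes was not tested.

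The genes whose levels ran most like those of the segment-defining members over the 12 arrays were looked up among 16119 genes by Pearson's r. For Slc12a1 they were the ascorbate transporter Slc23a1 (r = 0.996), Gm10804 (r = 0.994) and the proton pump subunit Atp6v1b1 (r = 0.993). For Umod they were Lrp2 (r = 0.984), the endocytic receptor megalin, Fabp3 (r = 0.981) and Fbp1 (r = 0.980), a gluconeogenic enzyme. For Slc12a3 they were Klk1 (r = 0.987), tissue kallikrein, Csad (r = 0.986) and the organic anion transporter Slc22a6 (r = 0.981). All genes share the same 12 arrays and the same rise towards P0, and no test was made of these values. Slc12a1 and its neighbours named above were well above background on 7 of the 12 arrays, and Slc12a3 on 3. Their r values thus rest in part on arrays near background. Several of these neighbours, such as Lrp2 and Slc22a6, are genes of the proximal tubule. At day 7 Klk1 measured -5.26, -4.35 and -4.42, against 3.43 at P0.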

How the data were processed

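Per the file headers, the authors' scanner files give the processed intensity of 62976 spots per array, already background-subtracted. Those headers name version 11.5.1.1 of Agilent Feature Extraction, and the submitters' processing notes version 10.7.3.1. The authors also deposited log2 values, which equal the log2 intensity minus 1 constant per array, within 0.01 of its 75th percentile. Probe positions are on mm9, per the file headers.

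Levels are log2 processed intensity less the 75th percentile of the same array, without control spots and outlier spots (108 to 206 per array). No spot was saturated. For each of 34650 gene names the probe with the highest mean over 12 arrays was kept. All 8 members matched their RefSeq symbol by accession.

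Groups were compared with limma 3.58.1 (R 4.3.3), two-sided, with Benjamini-Hochberg adjustment over all genes tested and a threshold of 0.05. Organoid days were fitted on 6 arrays, the stage trend as a slope on 5, and other comparisons on 12 arrays in 8 groups, where lone kidney arrays take the spread of organoid replicates. A gene entered a test where all arrays of 1 or more of its groups (for the trend, any array) had it well above background. A fold is "at least" where a group was below background throughout. In the list of 32 genes, those with the largest change (up to 4 per comparison) that passed were named, and other genes were named as examples after their values were seen. Some genes of the pathway are not reported here. The members and lists were chosen with earlier results of these data known. The fits were tested on simulated data with 200 changed genes.

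Alternatives were normexp background correction (offset 50), the authors' table, quantile normalization or median scaling, other background filters, averaging over probes, trend and robust moderation, slide or replicate number as a block, and leaving out each array.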

Additional observations from a re-analysis of the deposited data

Results flagged for a closer look

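For 4 genes of the loop and distal list the change over 7 days differed between organoids and E11.5 kidney by the interaction term in limma. These are 4 of 31 tested (12.9%), near the 12.3% of all genes called. Fxyd2, a sodium pump subunit, rose by 4.09 in organoids and by 5.60 in the kidney, a difference of -1.51 ± 0.33 (adjusted p = 0.0378). Ptger3, a prostaglandin receptor, differed by -1.96 ± 0.37 (adjusted p = 0.0260), with changes of -0.99 in organoids and 0.97 in the kidney. Cnnm2, a magnesium transport protein, differed by -1.41 ± 0.25 (adjusted p = 0.0232), with changes of -0.95 and 0.46. Sgk1, an aldosterone-induced kinase, rose by 1.07 in organoids and by 0.08 in the kidney, a difference of 1.0 ± 0.19 (adjusted p = 0.0268). For Fxyd2, Ptger3 and Cnnm2 the day 0 organoids started above the fresh E11.5 kidney (1.75 against -0.28, -1.84 against -4.90, the latter not well above background, and 2.17 against 0.66), and for Sgk1 below it (0.17 against 0.95). With slide as a block Ptger3 kept its call (adjusted p = 0.0449), while Fxyd2 (0.0900), Cnnm2 (0.0608) and Sgk1 (0.0608) did not by adjusted p. With 1 organoid array left out the adjusted p ranged from 0.0261 to 0.0643 for Ptger3, 0.0354 to 0.0786 for Fxyd2, 0.0266 to 0.0619 for Cnnm2 and 0.0332 to 0.0681 for Sgk1, so that each call was lost without day 7 replicate 1 and without day 7 replicate 3. Each kidney arm is 1 array.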

How the results depend on the processing

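The rises of Umod, Slc12a1, Kcnj1, Bsnd and Wnk4 from day 0 to day 7 kept their direction and their call under every alternative in which the gene was tested. The count of members called higher fell from 5 to 2 when a gene had to be well above background on every array, since Slc12a1, Kcnj1 and Bsnd then drop out. The count called lower rose from 0 to 1 (Egf) with normexp. Normexp also raised the members called higher from 0 to 2 at day 0 against E11.5 kidney (Bsnd 0.35, turned from -0.81, and Egf), and from 1 to 2 at day 7 against cultured kidney (Bsnd and Wnk4 in place of Egf). The latter count fell to 0 with the mean of probes, without a background filter and with trend and robust moderation. Trend and robust moderation called 1 member lower at day 0 against E11.5 kidney (Bsnd). For the stage trend, members called higher rose from 5 to 7 with normexp and with trend and robust moderation. When 1 array was left out, members called ranged from 0 to 1 lower for day 7 against day 0, 0 to 5 higher for the stage trend, 0 to 1 higher and 0 to 1 lower for day 0 against E11.5 kidney, 0 to 1 higher for day 7 against cultured kidney, and 0 to 1 either way for the change over 7 days.

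Beside Bsnd at day 0, signs turned for differences that were not called in either setting. For Stk39 this was the organoid difference (0.10 with normexp, 0.076 with quantile normalization, 0.016 with scaling to the median, and -0.044 to 0.021 with an array left out), the stage slope (-0.0055 with scaling to the median, -0.067 to 0.049 with an array left out), the difference from cultured kidney (0.13 with scaling to the median) and that from P0 (-0.041 with normexp, -0.019 with quantile normalization). For Wnk4 at day 0 against E11.5 kidney it was -0.018 with normexp and -0.0014 to 0.027 with an array left out. For Umod against cultured kidney it was 0.10 with scaling to the median, 1.35 with slide as a block and -0.47 to 0.33 with an array left out. For Slc12a1 the difference of changes was -0.10 to 0.36 with an array left out. The cause of these shifts was not tested.

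Counts over all genes moved by over 1.5 times for day 7 against P0 kidney (5003 higher, from 1812 with slide as a block to 9507 with normexp; 3734 lower, 2127 with slide as a block), for day 7 against cultured kidney (744 higher, 126 to 1962; 709 lower, 96 to 1874, with the same settings), for day 0 against E11.5 kidney (3182 higher, 9898 with normexp), for day 7 against day 0 (9217 lower, 15032 without a background filter) and for the trend (2485 lower, 4721 with normexp), and for the change over 7 days (1553 higher and 1443 lower, 3250 and 8427 with normexp, 736 and 583 without day 7 replicate 3). Normexp moved the split of calls to 9898 higher and 3906 lower for day 0 against E11.5 kidney (3182 and 2987 before) and to 9507 and 3722 for day 7 against P0 kidney. The replicate numbers did not pair the organoid arrays, since deviations of same-numbered arrays correlated at -0.03, -0.16 and -0.03. With the replicate block, Umod changed by 2.14 (adjusted p = 0.0106), and the 5 members remained called. In all, 5001 genes rose and 8144 fell with the block, against 5400 and 9217 without it. Signal near background limits Slc12a3 in all organoid arrays and Slc12a1 and Bsnd at day 0.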
